A study of Mus musculus with 4 samples.

Results

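The genes described here are Gadd45a, Gadd45b, Gadd45g and Gadd45gip1, in hair cells and non-hair cells of the newborn mouse cochlea with and without gentamicin. They were chosen by gene symbol, and the response of hair cells to gentamicin, above all that of Gadd45g, was already known when they were chosen. They are 4 of the 23420 genes listed, and all 4 had enough reads to enter the tests on 16077 genes. The hair cell response of these 4 genes is therefore given as a description without a test, while the response of non-hair cells and the difference between the untreated populations were tested.

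The 3 Gadd45 paralogs encode small acidic proteins that carry no enzymatic activity of their own and act by binding other proteins. They bind and activate Map3k4, a kinase at the head of the p38 and JNK cascades, hold back the cell cycle through Cdk1 with cyclin B, Cdkn1a and Pcna, and take part in DNA repair and active DNA demethylation. Their RNA is short-lived and is induced by genotoxic stress, by amino acid and endoplasmic reticulum stress, and by cytokines. Gadd45gip1 shares their name because its protein was found bound to Gadd45 proteins, but it is not a paralog. Its product, also called CRIF1, is a protein of the large subunit of the mitochondrial ribosome that is needed for the synthesis and membrane insertion of respiratory chain subunits. Gentamicin is an aminoglycoside antibiotic that binds ribosomal RNA and is taken up by hair cells, the mechanosensory cells of the cochlea.

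Cochleae of Atoh1-GFP transgenic mice on the CD1 (CD-1) background, in which an Atoh1 enhancer drives GFP in hair cells, were taken on postnatal day 1 and kept overnight in organ culture at 5% CO2 and 5% O2 with 1% N2 supplement and 100 U/ml penicillin. The 2 gentamicin groups then were exposed for 3 h to gentamicin at 0.5 mM, and the 2 control groups were not. GFP-positive hair cells (HC) and GFP-negative non-hair cells (NHC) were sorted from the dissociated organs. The gate left out cells with weak GFP, and NHC are a mixture of supporting cells, the other cells of the epithelium and surrounding tissue. Each of the 4 groups (HC control, HC gentamicin, NHC control and NHC gentamicin) had 3 replicates, which the study calls biological, and how animals were divided among them was not given.

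Each gene has a score in each replicate, which is 1 plus its reads scaled to library size, so that a gene without a read has a score of 1. A single read was worth between 0.0351 and 0.0461, and the replicates held between 22400525 and 28152185 reads, recovered from these steps. Scores were not divided by gene length, so levels are compared between genes only after division by transcript length. In bulk samples, fewer cells of a type and less RNA per cell cannot be told apart.

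The regions just upstream of the 3 paralogs are shown because the paralogs lie on different chromosomes, are named as one stress-induced family, and differed below in level and in response. Upstream sequences from RefSeq (GRCm38.p6) were matched for 3 of the 4 genes, and Gadd45gip1 had no match. Each sequence gives the 250 bases before the RefSeq start, 5′ to 3′ on the strand of the gene. The GENCODE annotation starts Gadd45a at 67037457 and Gadd45b at 80930073, inside these windows. For these genes the end of the window is therefore transcript in GENCODE, and distances to the start depend on the annotation used. Capitals mark matches, on either strand, to 7 motifs that were chosen after these sequences had been read: the CCAAT box (CCAAT), the TATA box (TATAAA), the octamer (ATTTGCAT), the C/EBP-ATF element (TTGCATCA), the E-box (CACGTG), the AP-1 site (TGACTCA) and the cAMP response element (TGACGTCA).
Gadd45a (chr6:67037408-67037657, minus strand): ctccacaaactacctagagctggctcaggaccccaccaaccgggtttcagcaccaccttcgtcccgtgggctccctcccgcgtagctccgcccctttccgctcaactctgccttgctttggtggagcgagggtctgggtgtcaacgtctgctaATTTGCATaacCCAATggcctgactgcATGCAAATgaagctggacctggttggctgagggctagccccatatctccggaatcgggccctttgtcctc
Gadd45b (chr10:80929841-80930090, plus strand): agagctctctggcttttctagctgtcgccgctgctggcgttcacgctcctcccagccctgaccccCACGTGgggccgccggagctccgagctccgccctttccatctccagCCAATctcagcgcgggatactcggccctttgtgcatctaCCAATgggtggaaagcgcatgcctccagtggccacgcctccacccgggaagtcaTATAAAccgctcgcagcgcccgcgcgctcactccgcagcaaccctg
Gadd45g (chr13:51846425-51846674, plus strand): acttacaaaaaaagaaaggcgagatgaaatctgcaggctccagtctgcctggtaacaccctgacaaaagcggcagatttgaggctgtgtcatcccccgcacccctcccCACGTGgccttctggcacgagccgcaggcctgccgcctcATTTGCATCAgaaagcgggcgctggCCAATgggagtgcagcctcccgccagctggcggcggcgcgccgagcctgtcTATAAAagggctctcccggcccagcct

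The 3 upstream regions held different sets of these motifs. A CCAAT box, the letters bound by NF-Y, was in all 3, once in Gadd45a, once in Gadd45g and 2 times in Gadd45b, against 33.8% of 32851 upstream windows of the same length. Gadd45a held the octamer, the letters bound by Oct-1, on both strands, starting 97 and 70 bases before the RefSeq start, and had no TATA box. Gadd45g held 1 octamer, 103 bases before its start, and the last 6 letters of that octamer were also the first 6 letters of a C/EBP-ATF element starting 101 bases before it. The octamer was in 1.6% of all windows and the C/EBP-ATF element, the letters at which ATF4 and C/EBP proteins pair on DNA, in 0.791%. A TATA box was present 27 bases before the start of Gadd45g and 46 bases before that of Gadd45b, against 12.4% of windows, and an E-box was present in the same 2 regions, against 6.02%. No AP-1 site or cAMP response element was found in these 3 windows, while 4.46% and 1.55% of all windows held one. These matches are a description of letters, and binding was not measured.

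Gadd45g (ENSMUSG00000021453.2) lies on chromosome 13, from 51846678 to 51848468 on the plus strand of mm10, with 4 exons in its longest coding transcript. Its scores in HC control were 37.3, 35.9 and 39.6. In HC gentamicin they were 106, 113 and 70.2. All 3 treated replicates were well above all 3 controls, and the third treated replicate was the lowest of them. The mean went from 37.6 ± 1.88 to 96.3 ± 22.9 (SD, n = 3 each), a log2 difference of 1.33 ± 0.27 (SE), or 2.51-fold. With any 1 of the 6 HC replicates left out, the difference stayed between 1.2 and 1.54.

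In the non-hair cells, Gadd45g was lower with gentamicin. Its scores in NHC control were 40.8, 41.5 and 34.0. In NHC gentamicin they were 13.8, 24.3 and 33.3, so that the groups did not overlap but the highest treated and the lowest control replicate almost touched. The log2 difference was -0.79 ± 0.27 (SE), or 1.73-fold lower, with an adjusted p of 0.181 in limma, and it did not meet the criteria for a change, which asked for an unadjusted p of less than 0.01 and a difference of more than 1.2-fold (unadjusted p 0.0132 in limma). The spread among the treated replicates set this value. Without NHC gentamicin replicate 3 the difference was -1.08 and met the criteria (adjusted p 0.0582 in limma), and without NHC gentamicin replicate 1 it was -0.44. In NHC gentamicin replicates 1, 2 and 3, the summed level of 12 immediate early genes was 4960, 6803 and 9932, the order of Gadd45g. In NHC control replicates 1, 2 and 3 it was 9811, 12874 and 10272, an order that Gadd45g did not share. In the same 3 treated replicates Fos had scores of 787, 1374 and 1935. The part of this in the Gadd45g values was not tested.

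Gadd45g was the only one of the 4 genes whose treated replicates lay entirely above the controls in one population and entirely below them in the other. Over all genes tested, the groups did not overlap for 54.8% in the HC comparison and for 17.8% in the NHC comparison, in either direction. The HC response exceeded the NHC response by 2.12 ± 0.38 (SE) on the log2 scale. Without drug the ranges of Gadd45g in the 2 populations overlapped (means 37.6 ± 1.88 in HC and 38.8 ± 4.16 in NHC, SD, n = 3 each). That difference was -0.04 ± 0.27 (SE) with an adjusted p of 0.903 in limma. This SE draws on the spread of all 4 groups, and the 2 control groups fitted alone gave an adjusted p of 0.733 in limma. The sign of the difference turned under another scaling (0.08) and without NHC control replicate 1 (0.00056) or 2 (0.01).

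**Figure D1:**
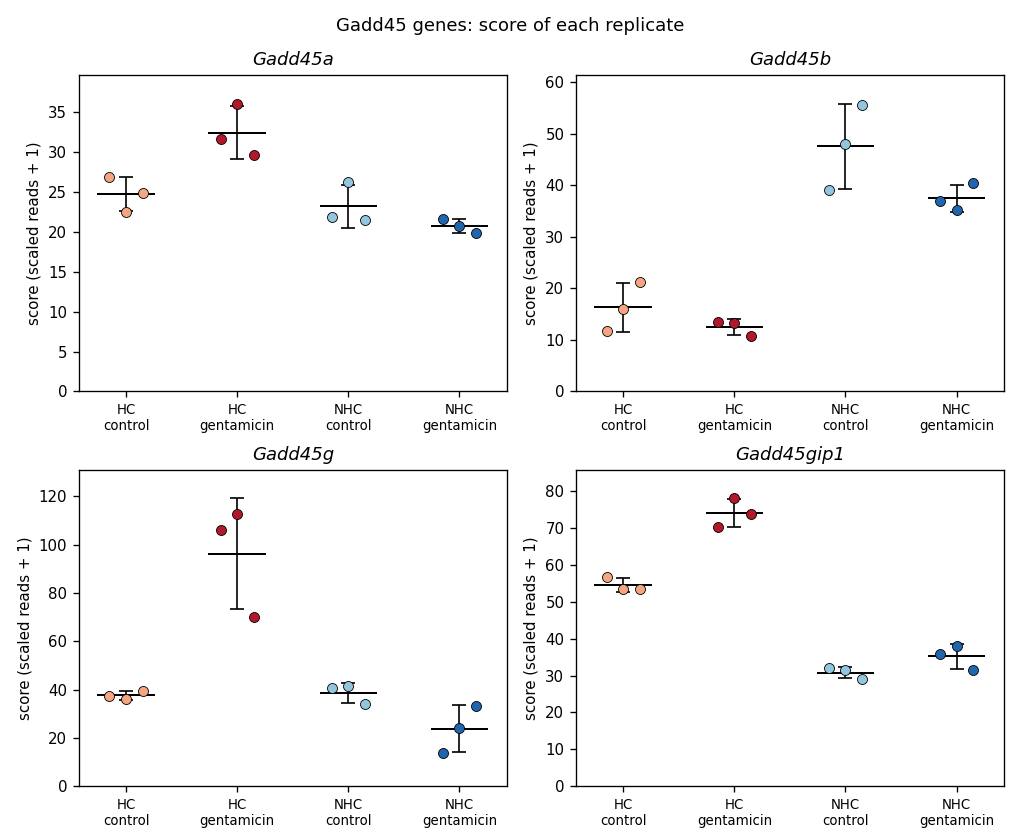
Score (scaled reads plus 1, linear axis from 0) of Gadd45a, Gadd45b, Gadd45g and Gadd45gip1 in each of the 3 replicates of HC control, HC gentamicin, NHC control and NHC gentamicin, with points for replicates from left to right in number order, a bar for the mean and whiskers for the SD. Gadd45g stands at 70.2 to 113 in HC gentamicin against 35.9 to 39.6 in HC control, and Gadd45b is lower in both HC groups than in both NHC groups.

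Gadd45a (ENSMUSG00000036390.8), the family member best known as a target of p53, lies on chromosome 6, from 67035096 to 67037457 on the minus strand of mm10, and also has 4 exons in its longest coding transcript. Its scores in HC control were 26.8, 22.5 and 24.9. In HC gentamicin they were 31.6, 36.1 and 29.6. The groups did not overlap, and the smallest gap was that between the first control and the third treated replicate. The means were 24.8 ± 2.16 and 32.4 ± 3.30 (SD, n = 3 each), a log2 difference of 0.39 ± 0.11 (SE), or 1.31-fold. With 1 of the 6 HC replicates left out, the difference ran from 0.31, without HC gentamicin replicate 2, to 0.45, without HC gentamicin replicate 3.

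In the non-hair cells Gadd45a scored 21.9, 26.3 and 21.5 without drug and 21.6, 20.8 and 19.9 with it. The groups overlapped, and the log2 difference was -0.16 ± 0.11 (SE, adjusted p 0.501 in limma). Untreated HC and NHC also overlapped, with a log2 difference of 0.10 ± 0.11 (SE, adjusted p 0.447 in limma). Overlapping genes were looked for only at Gadd45a, not at the other genes described here. A non-coding gene, E230016M11Rik, is annotated on the opposite strand over 859 bases of Gadd45a. Strand use in counting was not given in the sources used here, so reads of such a pair cannot be told apart, but E230016M11Rik scored only 2.64 to 3.77 in the 12 replicates.

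Gadd45b (ENSMUSG00000015312.9) lies on chromosome 10, from 80930073 to 80932204 on the plus strand of mm10, and is known as the member induced by NF-κB and TGF-β. It was the paralog that marked the populations. Its scores were 11.7, 16.0 and 21.2 in HC control and 39.1, 48.1 and 55.6 in NHC control. The highest hair cell replicate was far under the lowest non-hair cell replicate. The log2 difference, HC minus NHC, was -1.57 ± 0.20 (SE), or 2.97-fold lower in HC (means 16.3 ± 4.76 and 47.6 ± 8.28, SD, n = 3 each), with an adjusted p of 1.93e-05 in limma. It met the criteria under all 13 alternatives, between -1.78 and -1.35.

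With gentamicin, Gadd45b overlapped the controls in both populations. In HC gentamicin it scored 13.5, 13.2 and 10.7. The log2 difference was -0.35 ± 0.20 (SE). It was -0.57 without HC control replicate 1, the lowest of the controls, -0.14 without HC control replicate 3, the highest of them, and -0.25 without HC gentamicin replicate 3. In NHC gentamicin it scored 36.9, 35.2 and 40.4, a log2 difference of -0.33 ± 0.20 (SE, adjusted p 0.415 in limma). The responses of the populations differed by -0.02 ± 0.28 (SE), a value whose sign turned under scaling by total reads (0.05).

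Gadd45gip1 (ENSMUSG00000033751.5) lies on chromosome 8, from 84831522 to 84835482 on the plus strand of mm10, with 2 exons. Its scores were 56.8, 53.3 and 53.4 in HC control and 70.3, 78.0 and 73.8 in HC gentamicin. The means were 54.5 ± 1.98 and 74.0 ± 3.89 (SD, n = 3 each), a log2 difference of 0.44 ± 0.08 (SE), or 1.36-fold, and the groups did not overlap. This was a smaller difference than that of Gadd45g but between tighter replicates, and with any 1 of the 6 replicates left out it stayed between 0.40 and 0.48. In the non-hair cells it scored 32.0, 31.5 and 29.0 without drug and 36.0, 38 and 31.5 with it. The groups overlapped, and the log2 difference was 0.19 ± 0.08 (SE, adjusted p 0.273 in limma). Without NHC gentamicin replicate 3 it was 0.26 and met the criteria (adjusted p 0.0858 in limma). The recovered reads of Gadd45gip1 were not whole (1285.13, 1223.79 and 1137.53 in HC control), while those of Gadd45b and Gadd45g were, within the tolerance of 0.1. Genes overlapping Gadd45gip1 were not looked for, and the cause was not tested.

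Gadd45gip1 was also higher in untreated hair cells than in untreated non-hair cells. The log2 difference was 0.82 ± 0.08 (SE), or 1.77-fold (means 54.5 ± 1.98 and 30.8 ± 1.58, SD, n = 3 each), with an adjusted p of 2.51e-06 in limma, and it met the criteria under all 13 alternatives, between 0.78 and 0.95.

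In treated hair cells 27.5% of all genes tested met the criteria, in either direction, and no call is given for the 4 genes, whose response in this comparison was known when they were chosen. Of the 4 genes, 3 had HC groups that did not overlap, as did 54.8% of all genes tested, and nothing is read from that count. None of the 4 met the criteria in treated non-hair cells, where 5.44% of all genes did. Between the untreated populations, 2 of the 4 met them, Gadd45b downward and Gadd45gip1 upward in HC, against 65.8% of all genes tested. A difference between the 2 gentamicin responses was called, at an adjusted p under 0.05 in limma, for 13.4% of all genes, and for the 4 genes that difference is given above as a value without a test. The gentamicin comparison of each population and the comparison of the untreated populations share their control samples. The median log2 difference over all genes tested was -0.09 in treated HC, -0.01 in treated NHC and -0.12 between the untreated populations, and scaling by the median of ratios moved the last of these to -0.01.

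**Figure D2:**
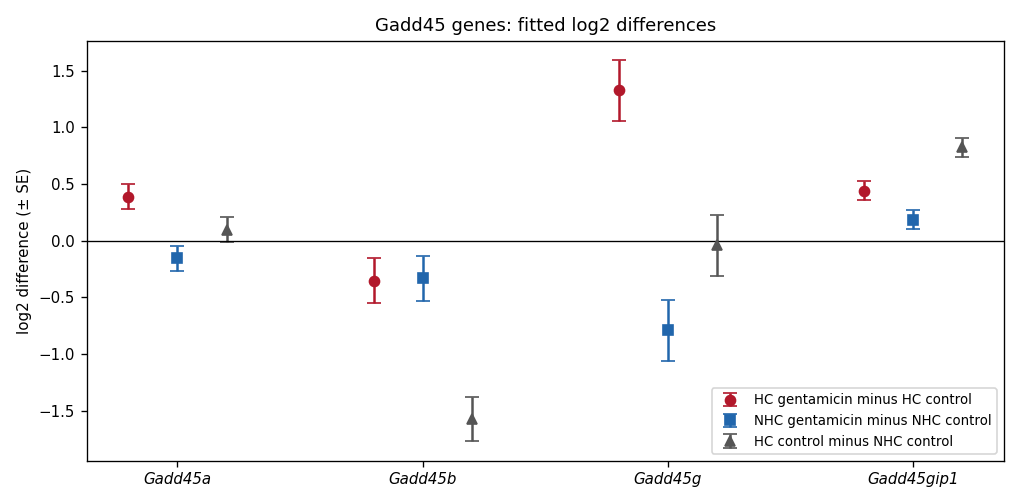
Fitted log2 difference (vertical axis) of the 4 Gadd45 genes for HC gentamicin minus HC control (circles), NHC gentamicin minus NHC control (squares) and HC control minus NHC control (triangles), with whiskers for the standard error of the limma fit. Gadd45g is at 1.33 in treated HC and -0.79 in treated NHC, and Gadd45b has the lowest value between the untreated populations, at -1.57.

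Per kilobase of the longest coding transcript, the paralogs differed in which of them was the most abundant. In HC control, Gadd45g was at 34.2 ± 1.75 scaled reads per kb, Gadd45a at 19.4 ± 1.77 and Gadd45b at 11.9 ± 3.71 (SD, n = 3 each). In NHC control, Gadd45b at 36.3 ± 6.45 and Gadd45g at 35.3 ± 3.88 did not differ beyond their spread, and Gadd45a was at 18.2 ± 2.19. These levels are above the median gene, which stood at 7.89 in HC control and 8.70 in NHC control over the 93.5% of tested genes with a transcript length. With gentamicin, Gadd45g in HC reached 89.0 ± 21.3 scaled reads per kb, higher than 96.2% of those genes, from a level higher than 84.8% of them.

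Summed per kb, the 3 paralogs went from 65.5 ± 5.09 in HC control to 124 ± 24.8 in HC gentamicin and from 89.7 ± 5.69 in NHC control to 65.9 ± 9.83 in NHC gentamicin (SD, n = 3 each). Gadd45g made up 52.2% ± 1.52 of this sum in HC control and 71.5% ± 3.43 in HC gentamicin. In the same groups the share of Gadd45b went from 18.1% ± 4.51 to 7.32% ± 0.63 (SD, n = 3 each). In the non-hair cells Gadd45b held the largest mean share in both groups, 40.4% ± 6.14 without drug and 43.6% ± 4.97 with it. Gadd45g held 39.4% ± 5.05 of the NHC control sum and 31.4% ± 9.45 of the NHC gentamicin sum, and these ranges overlapped. The share of Gadd45a was 29.7% ± 3.18 in HC control and 21.15% ± 2.96 in HC gentamicin (SD, n = 3 each). It was 20.2% ± 1.58 in NHC control and 24.99% ± 4.71 in NHC gentamicin. In NHC gentamicin replicate 1, Gadd45a (29.66%) exceeded Gadd45g (21.04%). Gadd45g thus held the largest share in hair cells, while in non-hair cells the sum was divided among all 3 paralogs.

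**Figure D3:**
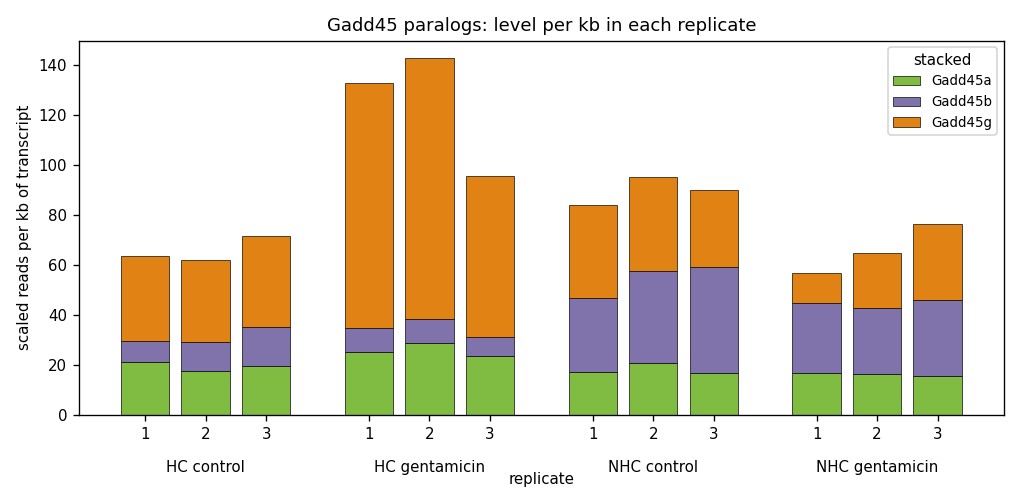
Stacked level of Gadd45a, Gadd45b and Gadd45g (scaled reads per kb of the longest coding transcript, axis from 0) in each replicate of the 4 groups. The Gadd45g segment makes up 67.6% to 73.8% of the sum in HC gentamicin, and the Gadd45b segment is the smallest in every HC replicate.

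Gadd45gip1 stood at 21.5 ± 0.79 scaled reads per kb in HC control and 12 ± 0.64 in NHC control (SD, n = 3 each) over a transcript of 2494 bases. RefSeq starts this gene 760 bases later, and over the remaining 1734 bases the same reads gave 30.9 ± 1.14 and 17.2 ± 0.91, so its place beside the paralogs depends on the annotation used.

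Over the 12 replicates, the log2 scores of Gadd45a and Gadd45g ran together (Pearson r 0.85, Spearman rho 0.88), and those of Gadd45b ran against Gadd45gip1 (r -0.96, rho -0.96). These are descriptions over replicates that fall into 4 groups and share their libraries. Among 9521 genes with a mean score of at least 20, the 3 whose pattern was most like Gadd45g were Dnajc7 (r 0.96), Stk40 (r 0.93) and Ddit3 (r 0.93). Of these, Ddit3 had a difference as large in treated HC, 1.46 on the log2 scale, while Dnajc7 and Stk40 stood at 0.28 and 0.31. The 3 genes most like Gadd45a were Zfp143, Gtf3c2 and Ccdc174 (r 0.95 each). Those most like Gadd45b were Shisa2, Cyp2j6 and Rnd3 (r 0.98 each), all with a negative log2 difference between HC control and NHC control, from -1.70 to -1.03. Those most like Gadd45gip1 were Osbpl11, Nol9 and Ankhd1 (r 0.99 each).

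The 2 other genes that carry a Gadd name are outside the Gadd45 family and encode unrelated proteins. They and the lists below were also chosen with earlier results of these data known. Their p-values are therefore not independent of that choice. Ddit3 (Gadd153 or CHOP), a transcription factor of the C/EBP family, scored 26.2, 29.4 and 24.0 in HC control and 68.3, 82.8 and 67.3 in HC gentamicin. It rose 2.74-fold (log2 difference 1.46 ± 0.14, SE, adjusted p 5.58e-05 in limma). Ppp1r15a (Gadd34), a subunit of the phosphatase that reverses eIF2α phosphorylation, scored 89.2, 112 and 95.7 in HC control and 163, 213 and 143 in HC gentamicin, and rose 1.73-fold (log2 difference 0.79 ± 0.22, SE, adjusted p 0.0181 in limma), a call kept in 3 of the 6 fits that left out a replicate. In treated non-hair cells Ddit3 met the criteria downward at -0.43 (adjusted p 0.155 in limma), though in only 1 of the 6 fits that left out a replicate, and Ppp1r15a was at -0.40 (adjusted p 0.374 in limma). For both genes the difference between the responses passed in limma, at 1.89 (adjusted p 0.000652) for Ddit3 and 1.2 (adjusted p 0.0292) for Ppp1r15a. As with Gadd45g, the HC groups of each did not overlap.

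Of 13 known regulators of Gadd45 transcription, 4 rose and 1 fell in treated hair cells, 38.5% against 27.5% of all genes tested. The list's median log2 difference was 0.14 against -0.09 for all genes. Atf4, the transcription factor of the integrated stress response, scored 186, 211 and 183 in HC control and 651, 757 and 608 in HC gentamicin. Its rise was 3.47-fold (log2 difference 1.80 ± 0.11, SE, adjusted p 8.62e-06 in limma). Jun, a subunit of AP-1, rose by 1.45 ± 0.31 and Nfkb1, a subunit of NF-κB, by 0.57 ± 0.09 (log2, SE, adjusted p 0.00536 and 0.000652 in limma). Egr1 was the regulator that fell, at -0.68 ± 0.18 (SE, adjusted p 0.0163 in limma), and 3 of the 6 fits that left out a replicate kept that call. The response difference of Atf4 was 1.83, of Jun 1.97 and of Nfkb1 0.52, and all 3 passed in limma (adjusted p 0.000338, 0.0166 and 0.0183). The 8 others did not meet the criteria. Among them were Trp53, which encodes p53, at 0.14 (adjusted p 0.474 in limma), Pou2f1, which encodes Oct-1, at -0.24 (adjusted p 0.0599) and Nfya, a subunit of NF-Y, at -0.27 (adjusted p 0.0985). In treated non-hair cells, Ddit3 was the 1 regulator of 13 that met the criteria, and Atf4 was at -0.04 (adjusted p 0.907 in limma).

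**Figure D4:**
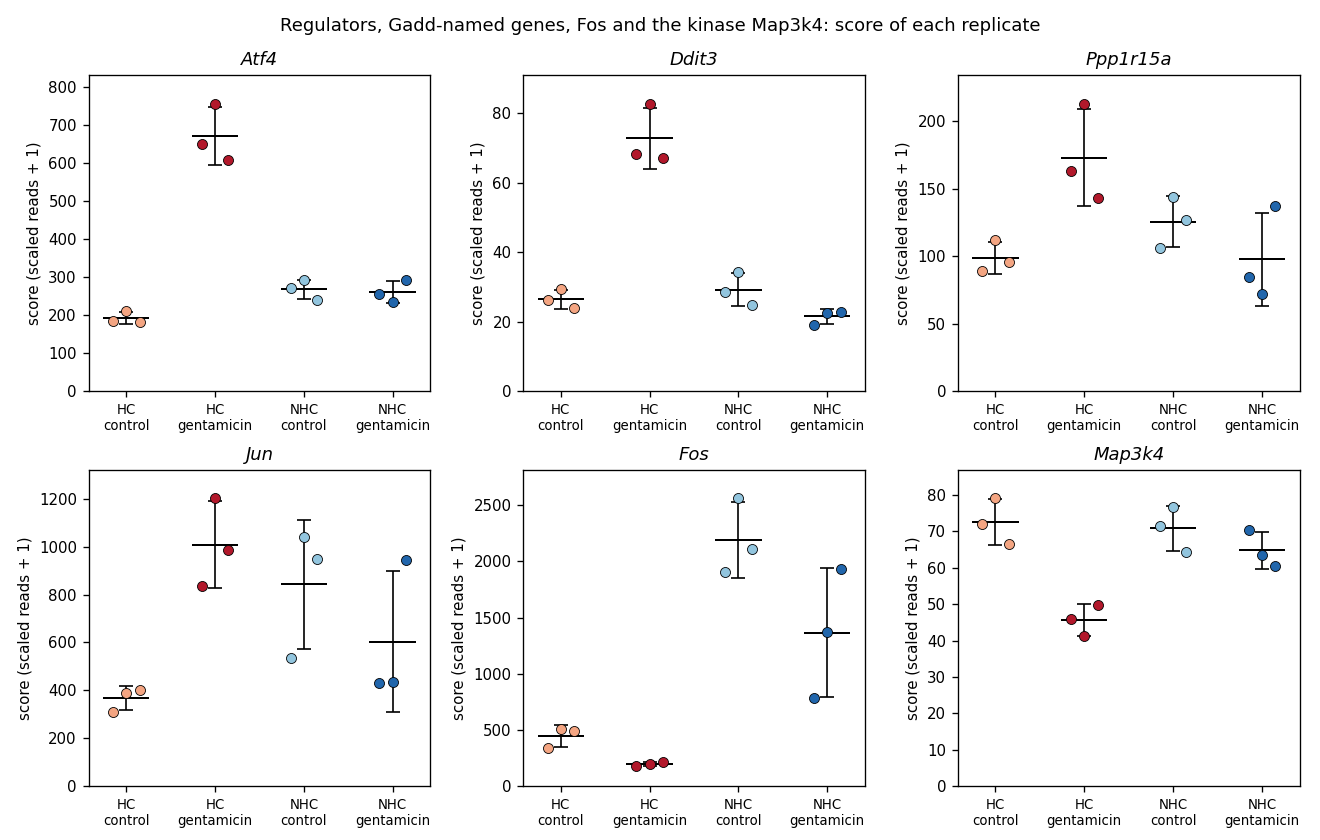
Score (scaled reads plus 1, linear axes from 0) of Atf4, Ddit3, Ppp1r15a, Jun, Fos and Map3k4 in each of the 3 replicates of the 4 groups, with a bar for the mean and whiskers for the SD. Atf4 is at 608 to 757 in HC gentamicin and at no more than 294 in the other groups, and Map3k4 is at 41.2 to 49.8 in HC gentamicin and at 60.4 or more elsewhere.

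Of the genes for 8 proteins that Gadd45 proteins bind, 1 rose and 1 fell in treated hair cells, 25% against 27.5% of all genes tested. Map3k4, the kinase that Gadd45 proteins activate, scored 72.0, 79.0 and 66.4 in HC control and 45.9, 41.2 and 49.8 in HC gentamicin. It fell 1.59-fold (log2 difference -0.67 ± 0.10, SE, adjusted p 0.000623 in limma), while in non-hair cells it was at -0.13 (adjusted p 0.535), and the responses differed by -0.54 (adjusted p 0.029 in limma). Gadd45g and this partner thus had opposite signs in the same hair cell replicates. Aurka, a mitotic kinase, rose from a mean score of 2.96 to 4.48 (log2 difference 0.60 ± 0.19, SE, adjusted p 0.0291 in limma), but met the criteria in none of the 6 fits that left out a replicate. Cdkn1a, the inhibitor p21, stood at -0.60 (adjusted p 0.0352 in limma) and did not meet the criteria. The median over the 8 was -0.23 in treated HC and 0.05 in treated NHC, where none of them met the criteria.

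In the p38 and JNK cascade, 2 of 13 genes rose and 1 fell in treated hair cells, with a median of -0.20. Mapk8, which encodes the kinase JNK1, rose by 0.47 ± 0.07, and Map3k5, another kinase at the head of the cascade, rose by 0.45 ± 0.11 (log2, SE, adjusted p 0.000639 and 0.00927 in limma). The gene that fell was Map3k4. For Mapk8 the difference between the responses also passed in limma, at 0.64 (adjusted p 0.00413). None of the 13 met the criteria in treated non-hair cells, where the median was -0.13. The share called in hair cells, 23.1%, was near that of all genes.

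Of 16 p53 targets other than Gadd45a, 2 rose and 2 fell in treated hair cells, 25% against 27.5% of all genes tested. Their median was -0.10 against -0.09 for all genes. Mdm2, which encodes the ligase that degrades p53, rose by 0.36 ± 0.08, and the phosphatase gene Ppm1d rose by 0.41 ± 0.11 (log2, SE, adjusted p 0.00636 and 0.0185 in limma). Sesn2 fell by 0.70 and Phlda3 fell by 0.68 on the log2 scale (adjusted p 0.00764 and 0.0282 in limma). Without 1 of the 6 replicates, Ppm1d kept its call in 3 fits and Phlda3 in 1. In treated non-hair cells none of the 16 met the criteria, and their median was -0.14.

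Of 12 immediate early genes, which are also induced when tissue is handled and dissociated, 7 fell and 1 rose in treated hair cells. That share was 66.7%, against 27.5% of all genes tested. The gene that rose was Jun. Ier3 fell by 1.41, Fosb by 1.38 and Zfp36 by 1.18 on the log2 scale (adjusted p 0.000383, 0.0235 and 0.00766 in limma), and Fosb kept its call in 2 of the 6 fits that left out a replicate. The list's median was -0.88 in treated HC and -0.71 in treated NHC, where Ier3 (-0.96, adjusted p 0.0623 in limma) and Junb (-0.78, adjusted p 0.113, kept in 4 of 6 fits with a replicate left out) met the criteria and the 12 values were all negative. Its summed level was 2099 to 3086 in HC control and 2144 to 2624 in HC gentamicin. Gadd45g, at 1.33, therefore went against most of this group in hair cells.

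For Gadd45gip1 the comparison is with the other proteins of the large mitochondrial ribosomal subunit. Of 47 Mrpl genes, 7 rose and 4 fell in treated hair cells, 23.4% against 27.5% of all genes tested. Their median log2 difference was 0.06. Mrpl1 rose by 0.84, Mrpl16 by 0.56 and Mrpl37 by 0.41 (adjusted p 0.000353, 0.00165 and 0.00272 in limma). Mrpl14 fell by 0.61, Mrpl23 by 0.47 and Mrpl10 by 0.33 on the log2 scale (adjusted p 0.0014, 0.00992 and 0.0244 in limma), of which Mrpl10 kept its call in 2 of the 6 fits that left out a replicate. Gadd45gip1, at 0.44, was above the median of this group but inside its range. In treated NHC, 3 of the 47 met the criteria, Mrpl21, Mrpl3 and Mrpl17, all upward (0.42, 0.32 and 0.28, adjusted p 0.142, 0.119 and 0.0973 in limma), and the median was 0.10. With a replicate left out, Mrpl21 and Mrpl3 kept that call in 2 of 6 fits and Mrpl17 in 3. Between the untreated populations 5 Mrpl genes were higher and 9 lower in HC, and the median was -0.00, while Gadd45gip1 was at 0.82.

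Of 4 other partners of the Gadd45gip1 protein, Nr4a1, Nfe2l2, Stat3 and Oxa1l, none met the criteria in treated HC, where the median was -0.06. In treated NHC only Stat3 met them, downward (-0.30, adjusted p 0.119 in limma, kept in 3 of the 6 fits that left out a replicate), and the median was -0.28. All 4 were lower in untreated hair cells than in untreated non-hair cells, the opposite direction to Gadd45gip1.

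**Figure D5:**
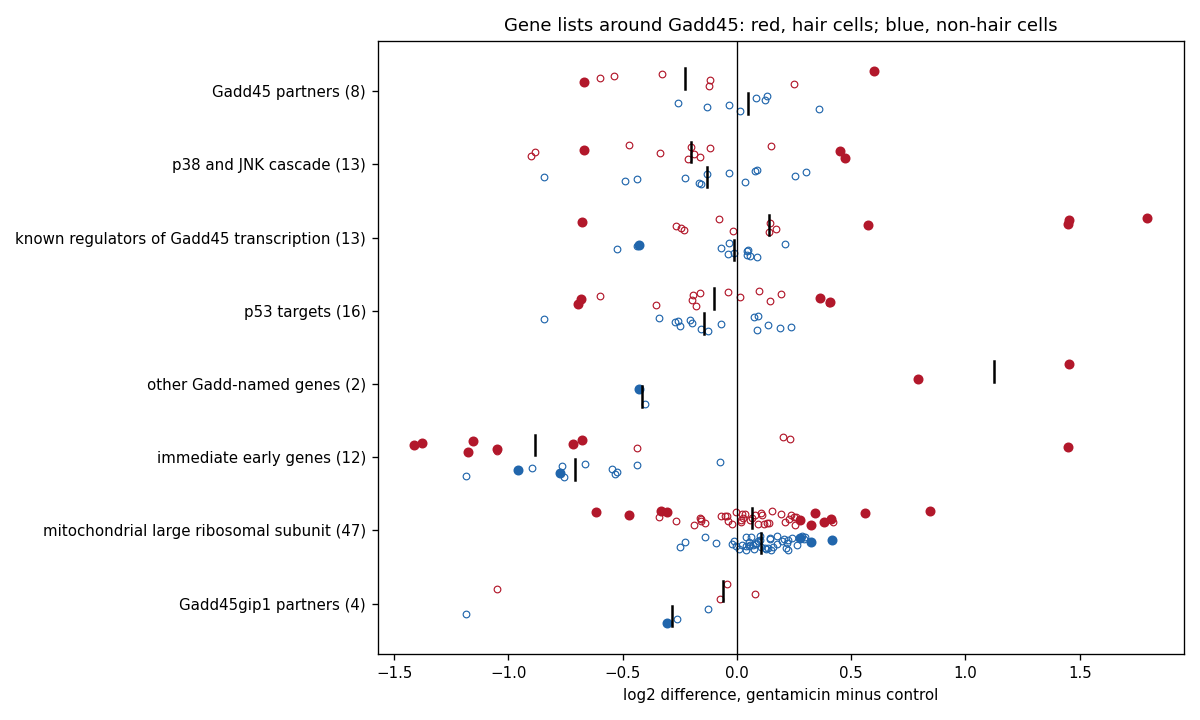
Log2 difference with gentamicin (horizontal axis) of each gene of 8 lists around Gadd45, in hair cells (red, upper row of each list) and non-hair cells (blue, lower row), with filled points for genes that met the criteria, open points for the others and a black line for the median. The number of genes is given beside each list, and the medians range from -0.88 to 1.12 in HC and from -0.71 to 0.10 in NHC.

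Hair cell markers placed the sorted populations as labelled, and supporting cell markers did not. The summed level of 6 hair cell markers was 10552 to 10984 in HC control and 195 to 233 in NHC control, and all 6 were higher in HC. With gentamicin, none of the 6 met the criteria in hair cells, but their sum was lower, at 8843 to 9906. The fit takes 1 spread per gene over all 4 groups, so the NHC replicates enter these calls. Atoh1 in HC rose without overlap, 190 to 223 against 288 to 304 with the drug, and Gfi1 did also. Otof (3823 to 4030 against 2574 to 3171) and Myo7a (1581 to 1726 against 1315 to 1452) fell without overlap. Pou4f3 and Myo6 overlapped. Groups without overlap were found for 54.8% of all genes tested. Markers of other cells were present in HC. With the drug, the mean sums for fibroblasts and mesenchyme, supporting cells, endothelium and Schwann cells were lower. The macrophage sum was higher, and the ranges for endothelium and red blood cells overlapped. The sum of 6 fibroblast and mesenchyme markers was 471 to 704 in HC control and 293 to 384 in HC gentamicin, with 3 of 6 meeting the criteria downward, and that of 10 supporting cell markers was 1819 to 2160 and 880 to 1467, with 3 of 10 downward. The supporting cell sum was 1278 to 1684 in NHC control, lower than in HC control. Between the untreated populations, 8 of the 10 supporting cell markers were higher in HC (median log2 difference 0.46). Of the 10, 2 met the criteria upward and 1 downward in HC. Sums for 5 endothelial markers were 33.7 to 47.9 and 25.6 to 34.5 (1 of 5 downward), and for 4 Schwann cell markers 165 to 207 and 76.9 to 139 (2 of 4 downward). The sum of 5 macrophage markers was 4.52 to 5.26 and 14.8 to 21.4, with Cd68 alone upward, and that of 3 red blood cell markers was 0.51 to 1.46 and 0.37 to 7.61. No marker was at 0 throughout a group. The part of these markers in the differences of the Gadd45 genes was not tested.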

How the data were processed

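Polyadenylated RNA of sorted hair cells and non-hair cells was sequenced (single-end 50-base reads, Illumina TruSeq mRNA libraries). The authors aligned trimmed reads to mm10 with TopHat 2 in PartekFlow and deposited 1 file per group with a score per gene for each of 3 replicates. The methods describe the deposited score as RPKM, but most of its lowest values rise above 1 in steps of 1 size per replicate. It was therefore taken as reads scaled to library size plus 1, without length. Between 83.3% and 84.5% of low values came out as whole reads (tolerance 0.1), under what a count model needs. Reads recovered over the listed genes came to 22400525 to 28152185 a replicate, which limits precision for low genes, and 2954 of 23420 genes had no read.

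Log2 scores of 16077 genes with at least 100 reads over the 12 replicates were fitted with limma 3.58.1 (R 4.3.3), with 4 group means in 1 model, empirical Bayes with a trend and two-sided tests. In this fit each SE and p-value rests on 1 residual spread per gene over all 4 groups, not on the 2 groups compared. A gene was called when its unadjusted p was less than 0.01 and it differed by more than 1.2-fold, after the filters of the study. Benjamini-Hochberg adjustment ran over all genes tested, and differences between responses were called at an adjusted p under 0.05. The authors' own tool for differential expression was not rerun. Values of 1 further gene are not reported here. The fit was tested on simulated data.

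The 4 members and the gene lists were chosen with earlier results of these data known: Gadd45 partners, the p38 and JNK cascade, known regulators of Gadd45 transcription, p53 targets, other Gadd-named genes, immediate early genes, the mitochondrial large ribosomal subunit, Gadd45gip1 partners and markers of 7 cell types. From each list, the up to 3 genes a direction with the largest log2 difference among those called for each gentamicin comparison were named. Partners and regulators were named for their role, with Cdkn1a, Nfkb1, Trp53, Pou2f1, Nfya, Fos and Cd68 among these. The hair cell markers were named for their HC ranges. For each member the 3 genes with the highest Pearson correlation over 12 replicates were named among genes with a mean score of at least 20. Positions and lengths are from GENCODE M21 on mm10, using the longest coding transcript of each gene, and upstream sequences from RefSeq (GRCm38.p6).

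Replicate numbers come from the file columns. Same-numbered HC control and NHC control replicates deviated together (correlations of deviations 0.22, 0.32 and 0.20 across genes). The numbers may pair these 2 groups, but the main fit used no pairing. Between same-numbered control and treated replicates the correlations were 0.04, 0.05 and 0.04 in HC and 0.21, -0.23 and 0.68 in NHC. Same-numbered HC gentamicin and NHC gentamicin replicates gave 0.38, -0.04 and -0.02. The replicate block applied the numbers across all 4 groups. The alternatives were other scalings, an offset of 0.1, other read minimums, a replicate block, a fit of 2 groups alone, and leaving out each replicate. A replicate was paired with no named animal, so p-values measure only the spread between these samples.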

Additional observations from a re-analysis of the deposited data

Results flagged for a closer look

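Gadd45g was the 1 result singled out. All 3 treated HC replicates were above every HC control, and all 3 treated NHC replicates were below every NHC control. Over all genes tested, the groups did not overlap for 54.8% in HC and 17.8% in NHC, in either direction. The NHC difference did not meet the criteria (adjusted p 0.181 in limma), with 33.3 the highest treated and 34.0 the lowest control score. On the log2 scale, the HC response exceeded the NHC response by 2.12. The difference between these responses was not tested, because the hair cell response of Gadd45g was known when the genes were chosen.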

How the results depend on the processing

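Of 285 values under alternatives, 264 kept their direction and, where tested, their side of the criteria, where untested moved by no more than the residual SD of the gene between replicates, or, as counts, stayed within 1.5 times, among them 217 of 228 for the 4 genes. The read minimums, the replicate block and the fit of 2 groups alone leave a gene's log2 difference unchanged. For the untested values of the 4 genes, agreement under these settings was therefore fixed in advance. A wide residual SD also allows wide moves, and Gadd45b in treated HC counted as kept from -0.57 to -0.14. A count model on recovered reads was not run, since too few values were whole. Scaling by total reads moved Gadd45gip1 in treated HC to 0.54 and turned the difference between the Gadd45b responses to 0.048, and median-of-ratios scaling turned Gadd45g between untreated populations to 0.084. With a replicate removed, Gadd45g between untreated populations ranged from -0.13 to 0.014, the difference between the Gadd45b responses from -0.24 to 0.19, Gadd45g in treated NHC from -1.08 to -0.44 and Gadd45gip1 in treated NHC from 0.13 to 0.26. Genes called in treated NHC were 875, 383 with 2 groups fitted alone and 411 to 1570 with a replicate removed, and those called for the difference between responses were 2158 and 1163 to 2378. The cause was not tested. Scaling by total reads also changed the split of called genes, from 2037 higher and 2381 lower to 2775 and 1591 in treated HC, from 512 and 363 to 633 and 282 in treated NHC, and from 1102 and 1056 to 1500 and 717 for the difference between responses. The replicate block gave 10669 called genes between the untreated populations against 10581, 4618 against 4418 in treated HC and 878 against 875 in treated NHC, and changed no tested call of the 4 genes.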
